A study of Mus musculus with 4 samples.

Results

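The genes described here are the insulin-like growth factor (IGF) ligands, 6 IGF binding proteins and the insulin receptor substrates of mouse mammary tumours. All probe sets of Igf1, Igf2, Igfbp2, Igfbp3, Igfbp4, Igfbp5, Igfbp6, Igfbp7, Irs1 and Irs2 that the platform table assigns to a single gene symbol were taken, which gave 21 probe sets of 10 genes, out of 20380 such probe sets of 12393 genes. The RNA came from mammary tumours of female nulliparous FVB mice, all of which had received the progestin MP (15 mg, Depo-Provera) under the skin and then 4 weekly oral doses of 1 mg of the carcinogen DMBA. The WT placebo and WT RU486 groups were wild-type littermates, and the PAX8PPARg placebo and PAX8PPARg RU486 groups carried MMTV-PAX8PPARg, a transgene for a fusion of the transcription factor PAX8 with PPARg, a nuclear receptor. Its MMTV promoter, from mouse mammary tumour virus, drives expression mainly in mammary epithelium. Pellets releasing over 60 days held placebo or 2.5 mg of RU486 (mifepristone, which blocks progesterone and glucocorticoid receptors), were placed 1 day after the last DMBA dose and were replaced after 60 days. Ages are given as matched only. Each group was 1 Affymetrix array hybridised with RNA pooled from 5 mice, so no spread between mice or pools was measured. Single arrays were compared without a test, and having 4 arrays limits how precise any value is.

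IGF1 and IGF2 are secreted peptides that activate the type 1 IGF receptor, a tyrosine kinase, and IRS1 and IRS2 are docking proteins that carry its signal and that of the insulin receptor to PI3 kinase and AKT. The IGF binding proteins hold IGFs in the extracellular space: they can keep the ligand from its receptor or release it after cleavage by proteases, and several also bind matrix or cell surfaces. In the mammary gland IGF1 is a mediator of growth hormone action and is made largely by stroma, IRS proteins act in the epithelium, and IGFBP5 is known for its secretion by the epithelium during involution. Igfbp7 is listed with the family, although its product binds IGFs only weakly.

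The arrays were scaled to a common mean, with a 2% trimmed mean signal of 500.1 to 500.2 on each. They differed in spike controls, in background and in cell type markers. Relative to WT placebo, the level of 18 control probe sets for spiked-in RNA was 1.59 for WT RU486. In PAX8PPARg it was 1.00 under placebo and 2.43 under RU486. The spike level was thus higher under RU486 in both genotypes, and its part in rises of dim genes under RU486 was not tested. Signals are intensities on a linear scale, and a signal is called within the background range when it does not exceed the brightest signal that 27 bacterial control probe sets gave on the same array, which was 9.6 under placebo and 18.5 under RU486 in WT, and 8.3 and 35.3 in PAX8PPARg. The summed signal of 18 luminal epithelial markers was 48745 under placebo and 6983.5 under RU486 in WT, and 41939.6 and 48283.5 in PAX8PPARg, so the WT RU486 array stood apart from the tissue its label names, with 3 of the 18 within the background range there. The summed signal of 15 macrophage markers was 74004.9 on that array and 20820.4 to 22988.4 on the others, and that of 13 adipocyte markers was 44770.7 on the PAX8PPARg placebo array and 8179.3 to 19070.1 on the others. In these bulk samples fewer cells of a type and less RNA per cell cannot be told apart. With 1 array per group, no comparison can be given without the WT RU486 array in WT or without the PAX8PPARg placebo array in PAX8PPARg.

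The start site windows of 4 members are shown because RU486 acts on nuclear receptors and the transgene holds PPARg, so that the letters these receptors are known to bind could be looked for beside genes whose RU486 differences point in different directions. Each is the 250 bases before the annotated start, 5′ to 3′ on the gene's strand, from RefSeq on build GRCm38.p6, with matches to the half-site TGTTCT of the progesterone and glucocorticoid receptors or the half-site AGGTCA of PPARs, on either strand, in capitals. Igfbp2 (chr1:72824230-72824479, plus strand) and Igfbp5 (chr1:72874866-72875115, minus strand) are neighbours among protein-coding genes on chromosome 1. Igfbp2 has a second window, not shown (chr1:72825137-72825386), without a match. The Igf2 window is the most upstream of 4 (chr7:142666817-142667066, minus strand), and Igf1 lies at chr10:87860861-87861110 on the plus strand. The windows shown include every member window that held a match to either half-site.
Igfbp2: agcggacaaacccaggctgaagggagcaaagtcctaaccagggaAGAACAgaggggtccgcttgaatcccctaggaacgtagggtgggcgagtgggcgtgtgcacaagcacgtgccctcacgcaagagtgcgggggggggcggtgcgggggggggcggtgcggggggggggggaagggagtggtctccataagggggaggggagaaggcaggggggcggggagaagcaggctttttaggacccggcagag
Igfbp5: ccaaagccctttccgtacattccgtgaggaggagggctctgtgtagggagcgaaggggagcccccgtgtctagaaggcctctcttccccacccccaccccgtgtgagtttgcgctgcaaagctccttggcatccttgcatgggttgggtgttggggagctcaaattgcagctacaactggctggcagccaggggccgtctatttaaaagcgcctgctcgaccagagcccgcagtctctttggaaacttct
Igf2: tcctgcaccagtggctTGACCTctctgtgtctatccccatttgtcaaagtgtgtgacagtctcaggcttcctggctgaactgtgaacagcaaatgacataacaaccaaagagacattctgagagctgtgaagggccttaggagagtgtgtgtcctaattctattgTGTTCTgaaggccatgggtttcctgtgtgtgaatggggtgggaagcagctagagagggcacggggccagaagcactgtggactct
Igf1: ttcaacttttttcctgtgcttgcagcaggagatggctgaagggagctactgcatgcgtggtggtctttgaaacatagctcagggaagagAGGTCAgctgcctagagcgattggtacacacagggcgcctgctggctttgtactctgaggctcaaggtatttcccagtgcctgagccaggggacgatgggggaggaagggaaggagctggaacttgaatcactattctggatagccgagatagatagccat
The half-site TGTTCT was found in 2 of the 14 windows of the members, the Igfbp2 and Igf2 windows above, and in 16.1% of 32851 windows of all genes. AGGTCA was found in 2 of 14, the Igf2 and Igf1 windows above, and in 14.0% of all. The receptor palindrome (GNACA, then TGTNC after 3 free bases), the repeat of AGGTCA with 1 free base between its copies, the FOXO motif GTAAACA and the STAT motif TTCNNNGAA, each searched on both strands, were found in 0 of the 14 member windows and in 0.387%, 0.0335%, 3.17% and 7.02% of all. The repeat holds AGGTCA in full, and the palindrome can overlap TGTTCT. The windows of Irs2 and Igfbp3 held 34 and 32 CpG dinucleotides, against a median of 6 over all windows. These matches describe letters in a short window and say nothing about binding.

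The first question was how the IGF genes differed between RU486 and placebo in each genotype. Differences were taken between log2(signal + 16) values after centring each array on its median. For a gene with several probe sets the value is that of the brightest unless another is named. Igf2, Igfbp5 and Irs2 were lower by 2-fold or more in the WT RU486 pool and Igfbp4 was higher by 2-fold or more, while in PAX8PPARg Igfbp5 was lower by 2-fold or more and Igfbp2 and Igfbp3 higher by 2-fold or more. In WT these were 3 of 10 lower and 1 of 10 higher, where 8.85% of all 12393 genes were lower by 2-fold or more and 7.45% higher by 2-fold or more. In PAX8PPARg they were 1 of 10 lower and 2 of 10 higher, against 7.02% and 10.6% of all genes. The median of the 10 was -0.54 in WT and 0.13 in PAX8PPARg, beside 0.01 and 0.13 over all genes. Of the 10, 8 had a mean level in the upper part of all genes, divided at the median, and Igf2 and Igfbp6 were in the lower.

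**Figure D1:**
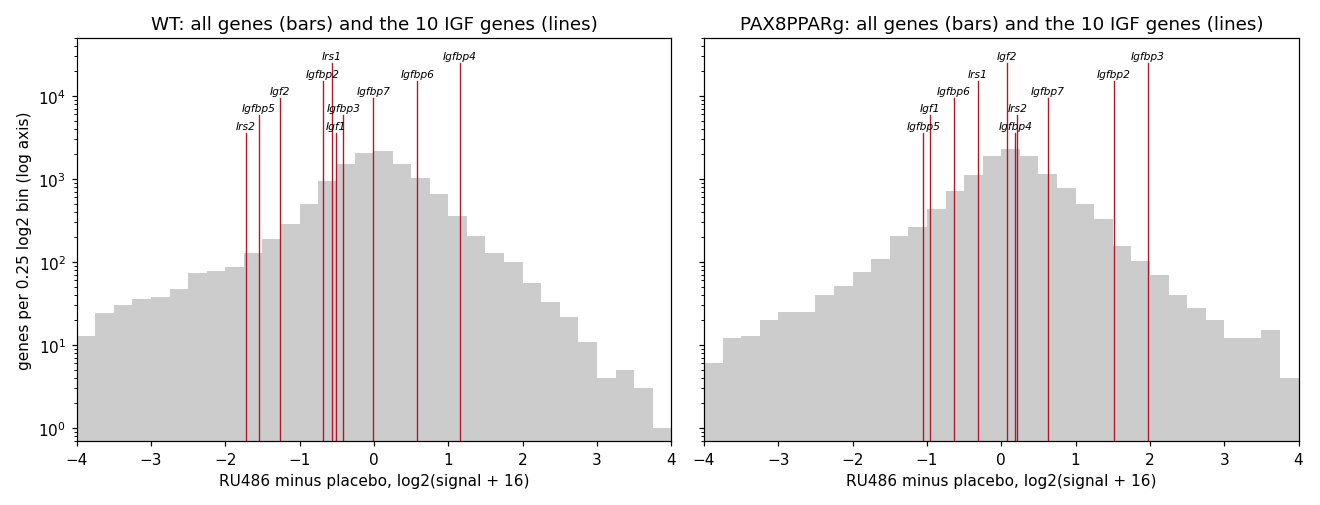
Number of genes per bin of the RU486 minus placebo difference on the log2(signal + 16) scale (bars, log axis, shown from -4 to 4) in WT and PAX8PPARg, with the 10 IGF genes as red lines. The genes past 1 log2 are Irs2, Igfbp5, Igf2 and Igfbp4 in WT and Igfbp5, Igfbp2 and Igfbp3 in PAX8PPARg.

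The ligand Igf1 was brightest on the WT placebo array and dimmest on the PAX8PPARg RU486 array. Its brightest probe set (1452014_a_at) read 2185.8 under placebo and 1533.9 under RU486 in WT, and 1480.9 and 684.2 in PAX8PPARg. In the same order the second read 967.1, 628.1, 678.7 and 219.0, and the third 373.3, 306.2, 223.3 and 134.4. All 3 were lower under RU486 in both genotypes. The differences were -0.51, -0.61 and -0.27 in WT and -0.96, -1.43 and -0.54 in PAX8PPARg, so that of the 3 the second probe set alone was past 2-fold, in PAX8PPARg. Without centring the brightest also passed 2-fold there, at -1.10.

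Igf2, the fetal ligand expressed from the paternal allele in most tissues, was dim on all arrays and dimmest on the WT RU486 array. The brighter probe set (1415931_at) read 75.9 under placebo and 22.1 under RU486 in WT, and 89.3 and 85.0 in PAX8PPARg. The other read 41.4, 4.9, 76.1 and 91.2 in the same order. The value of 22.1 lay just above the background range of its array (18.5), and the value of 4.9 within it, so both differences have an inexact size. They were -1.27 and -1.46 in WT, and 0.07 and 0.35 in PAX8PPARg. The first is -1.73 with a pseudocount of 1 and -0.70, short of 2-fold, with a pseudocount of 64.

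**Figure D2:**
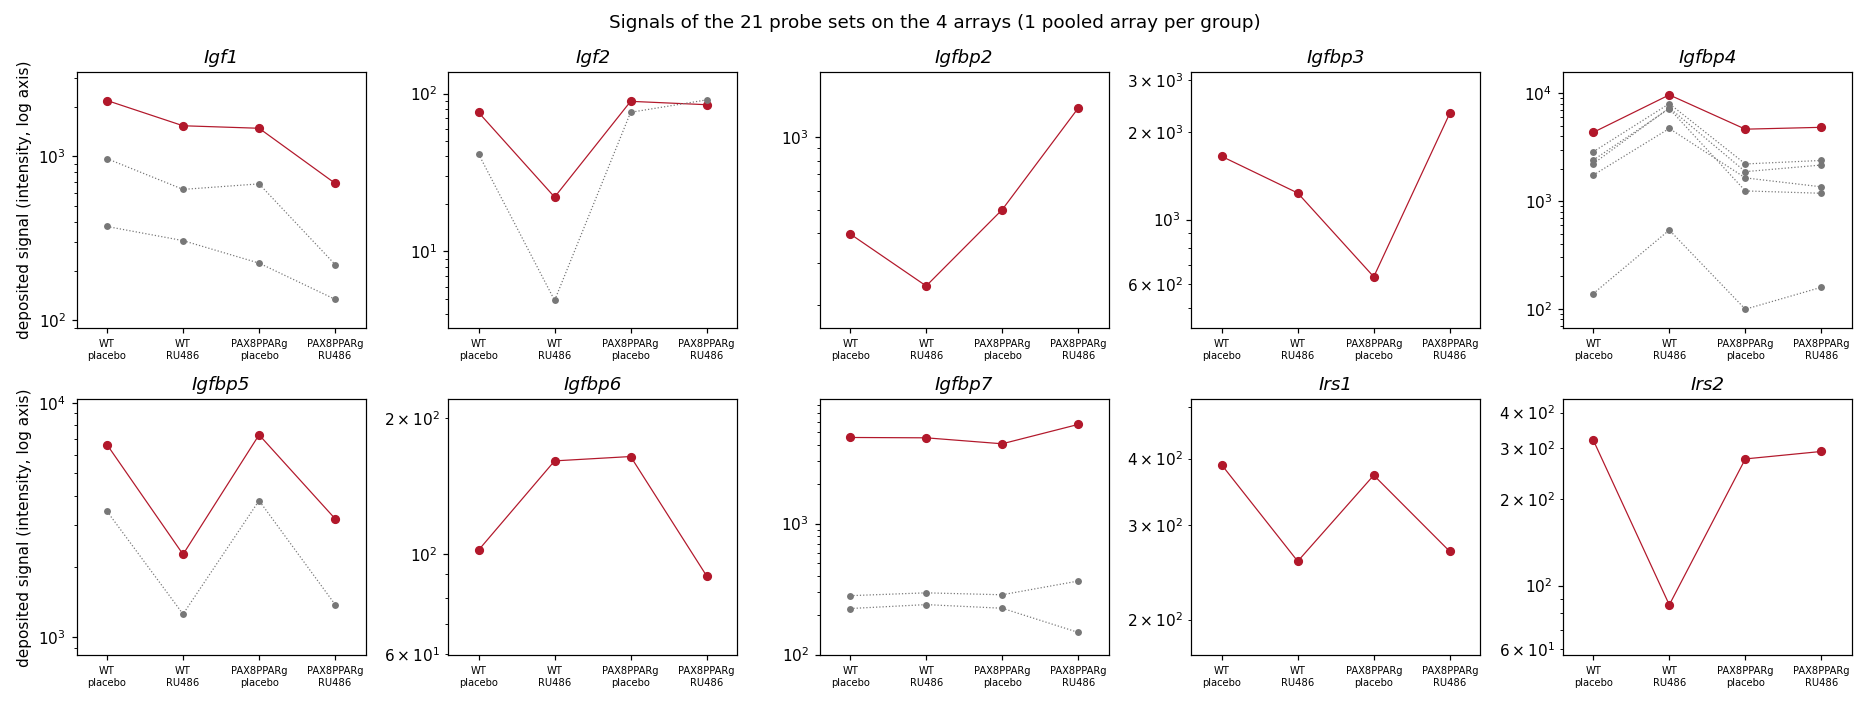
Deposited signal (intensity, log axis) of the 21 probe sets on the 4 arrays, 1 panel per gene, with the brightest probe set in red and the others in grey. Lines join the values of a probe set and do not stand for a time course. Igf2 and Irs2 are lowest on the WT RU486 array, Igfbp4 is highest there, and Igf1 is lowest on the PAX8PPARg RU486 array.

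The docking protein genes differed from each other. Irs2 (1443969_at), which relays insulin and IGF signals to PI3 kinase, read 320.8 under placebo and 85.7 under RU486 in WT, and 275.9 and 292.9 in PAX8PPARg. A single array, WT RU486, was thus low and the other 3 lay close together. Its difference was -1.73 in WT, where 4.04% of all genes had a difference as low or lower. It was 0.22 in PAX8PPARg. Irs1 (1423104_at) read 389.3, 257.1, 372.3 and 268.2 in the same order, lower under RU486 in both genotypes by less than 2-fold (-0.57 in WT and -0.32 in PAX8PPARg). Irs1 and Irs2 have 1 probe set each, so these values have no second measurement on the array.

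Igfbp5 was the one member lower by 2-fold or more under RU486 in both genotypes. Its brightest probe set (1422313_a_at) read 6626.1 under placebo and 2259.3 under RU486 in WT, and 7296.5 and 3204.9 in PAX8PPARg. The second read 3446.0 and 1257.4 in WT and 3828.4 and 1381.7 in PAX8PPARg. Both placebo arrays were above both RU486 arrays on each probe set. The differences were -1.54 and -1.44 in WT and -1.05 and -1.33 in PAX8PPARg, and the difference between genotypes under placebo was -0.05 and -0.04.

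Igfbp2 (1454159_a_at), whose product binds IGF2 with preference and is made by epithelium among other tissues, pointed in opposite directions in the 2 genotypes. It read 395.7 on the WT placebo and 240.2 on the WT RU486 array, a difference of -0.68. In PAX8PPARg it read 499.4 under placebo and 1323.2 under RU486, a difference of 1.51 or 2.85-fold. The PAX8PPARg RU486 array was the high one, and its neighbour Igfbp5 on the chromosome was lower on that array than on either placebo array. Igfbp3 (1423062_at), the main carrier of IGFs in the circulation, read 1646.6 and 1233.4 in WT (-0.41) and 637.2 and 2312.3 in PAX8PPARg (1.97, or 3.91-fold). The low value here was that of the PAX8PPARg placebo array, which was 1.54 log2 below the WT placebo array, so a high RU486 pool and a low placebo pool cannot be told apart in PAX8PPARg. Igfbp2 and Igfbp3 have 1 probe set each.

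Igfbp4, whose product mainly inhibits IGF action and is cleaved by the protease PAPP-A, was the one member higher by 2-fold or more under RU486 in WT. The brightest of its 6 probe sets (1437405_a_at) read 4332.0 under placebo and 9638.3 under RU486 in WT, and 4636.8 and 4823.9 in PAX8PPARg. The dimmest read 138.8, 538.9, 99.5 and 158.9 in the same order. The WT RU486 array was the highest for 6 of 6 probe sets. The differences ranged from 1.15 to 1.84 in WT and from -0.14 to 0.73 in PAX8PPARg, where the brightest gave 0.19 (-0.25 with quantile normalization).

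The other binding proteins stayed within 2-fold in both genotypes. Igfbp6 (1417933_at), whose product prefers IGF2, read 101.9 under placebo and 160.6 under RU486 in WT (0.58), and 164.2 and 89.3 in PAX8PPARg (-0.64). Igfbp7 (1423584_at), a matrix protein of vessels and stroma, read 4549.6, 4522.4, 4072.1 and 5722.1 in the same order. Its 3 probe sets differed by -0.01 to 0.09 in WT and disagreed in PAX8PPARg, with 0.62 for the brightest and 0.47 and -0.43 for the dimmer pair.

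**Figure D3:**
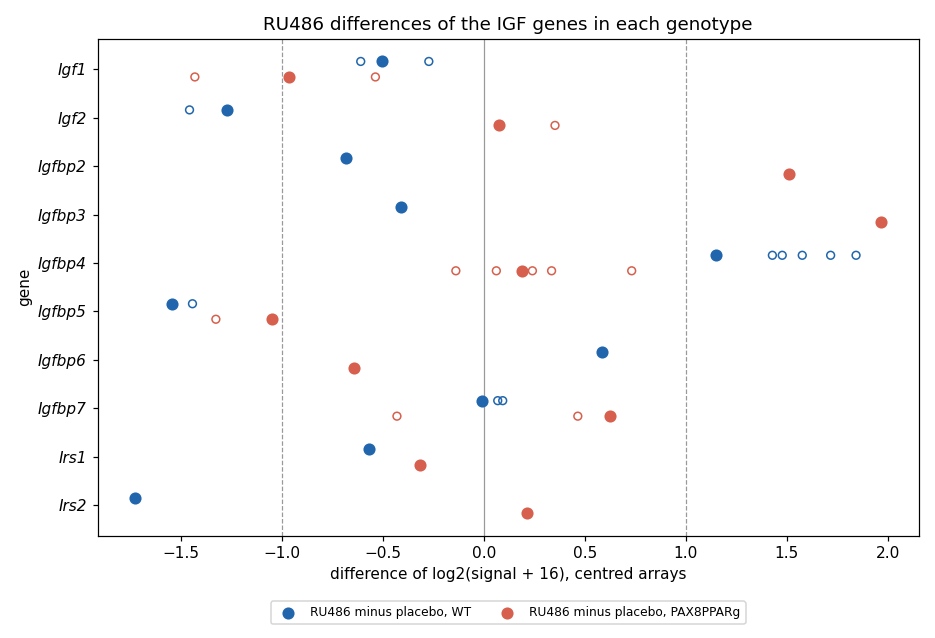
RU486 minus placebo difference of log2(signal + 16) for each probe set in WT (blue) and PAX8PPARg (red). Filled points are the brightest probe set of a gene, open points the others, and dashed lines mark 2-fold. Igfbp5 lies left of -1 in both genotypes, and Igfbp4 lies right of 1 in WT alone.

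The second question was how PAX8PPARg tumours differed from WT tumours under each treatment. These comparisons use the same arrays as the first and are not independent of them. Under placebo 1 of 10 members was lower by 2-fold or more, Igfbp3 at -1.54, and 0 were higher by 2-fold or more, against 5.50% lower and 4.28% higher among all genes. Igf1 was next, at -0.75 on its brightest probe set and -0.69 and -0.89 on the others. The remaining 8 lay between -0.40 (Irs2) and 0.42 (Igfbp6), with a median over the 10 of -0.17 beside -0.15 over all genes. Igfbp4 is given there by its brightest probe set (-0.09), and its other probe sets ran from -1.13 to -0.27.

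Under RU486, Igfbp2 (2.33), Irs2 (1.55) and Igf2 (1.35) were higher by 2-fold or more in PAX8PPARg, and Igf1 (-1.20) and Igfbp4 (-1.05) lower by 2-fold or more, which makes 3 of 10 higher and 2 of 10 lower, against 10.8% and 10.1% of all genes. Igf1 was lower on 3 of 3 probe sets (-1.51 to -1.16) and Igfbp4 on 6 of 6 (-2.65 to -1.05). Without centring the Igfbp4 value was just within 2-fold on the brightest probe set, while Igf1 was -1.15. Igf2 was 0.75, short of 2-fold, with a pseudocount of 64 and 1.83 with a pseudocount of 1. Its second probe set gave 2.30, with the WT RU486 signal within the background range. Igfbp3 (0.84), Igfbp5 (0.44), Igfbp7 (0.28), Irs1 (0.00) and Igfbp6 (-0.80) stayed within 2-fold.

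**Figure D4:**
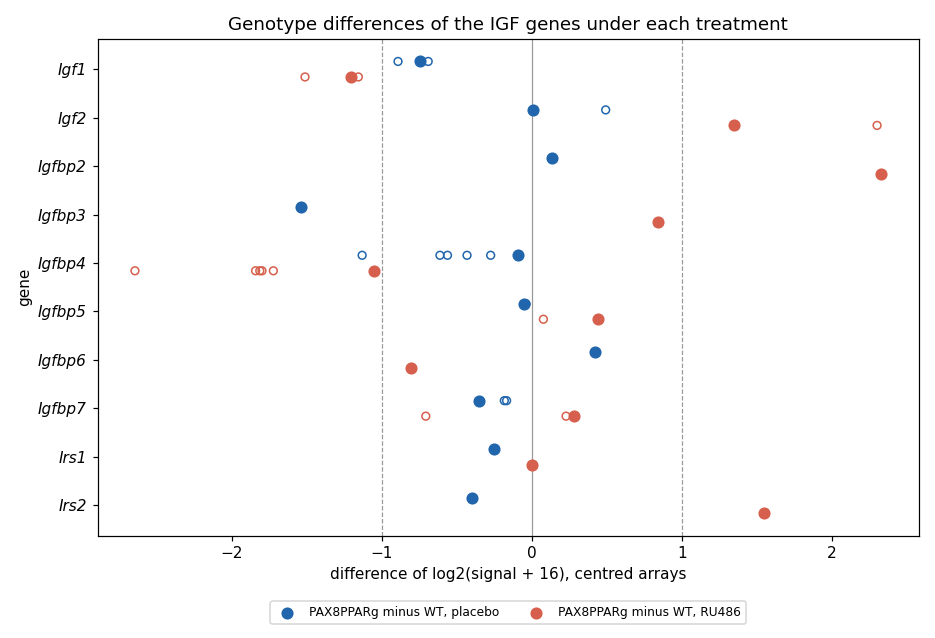
PAX8PPARg minus WT difference of log2(signal + 16) for each probe set under placebo (blue) and under RU486 (red), with filled points for the brightest probe set and dashed lines at 2-fold. Igfbp3 lies below -1 under placebo, and Igfbp2, Irs2 and Igf2 lie above 1 under RU486.

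The RU486 difference in PAX8PPARg minus that in WT was past 2-fold and positive for Igfbp3 (2.38), Igfbp2 (2.19), Irs2 (1.94) and Igf2 (1.34) and past 2-fold and negative for Igfbp6 (-1.23), which is 4 and 1 of 10, against 15.6% and 12.1% of all genes. It was 0.63 for Igfbp7, 0.50 for Igfbp5, 0.25 for Irs1, -0.46 for Igf1 and -0.96 for Igfbp4. The other probe sets of Igfbp4 were all past 2-fold, from -1.57 to -1.11, and quantile normalization gave -1.42 for the brightest. With a pseudocount of 64, Igf2 (0.77) and Igfbp6 (-0.90) were short of 2-fold. Igfbp5, Irs1 and Igf1 were lower under RU486 in both genotypes.

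A shift common to both genotypes was fitted over the 4 arrays with limma, with genotype as covariate and 1 residual degree of freedom. That residual is how far the RU486 difference departs from being the same in both genotypes. It does not measure spread between mice or pools. For RU486, 0 of 6197 fitted genes (0%) and 0 of the 8 fitted members passed an adjusted p of 0.05, with 278 genes and 1 member, Igfbp5, under 0.05 before adjustment (coefficient -1.30, SE 0.31, adjusted p = 0.970). For genotype, with treatment as covariate, 0 genes (0%) and 0 members passed, with 273 genes and 1 member, Igf1, under 0.05 before adjustment (coefficient -0.98, SE 0.30, adjusted p = 0.938). Without centring and with quantile normalization, 0 members were under 0.05 for genotype before adjustment.

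The rest of the pathway was read from lists of 85 genes, of which 75 were measured. In WT 6 were higher by 2-fold or more and 16 lower by 2-fold or more under RU486, beside 7.45% and 8.85% of all genes, and in PAX8PPARg 9 and 9, beside 10.6% and 7.02%. Among the receptors, the 2 probe sets of Igf1r, the signalling receptor of both ligands, differed by 0.50 and 0.81 in WT and by -0.34 and 0.45 in PAX8PPARg. Those of Igf2r, which clears IGF2, differed by -0.44 and -0.59 in WT and 0.61 and 0.18 in PAX8PPARg, and those of Insr, the insulin receptor, by -0.42 and -0.79 in WT and -0.62 and -0.21 in PAX8PPARg. Insrr, the insulin receptor-related receptor, was dim (20.2 to 81.6) and differed by 0.17 in WT and 1.56 in PAX8PPARg.

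The growth hormone axis, through which hepatic and local Igf1 is induced, was lower under RU486 in both genotypes for part of its genes. In WT 4 of 8 were lower and 0 higher by 2-fold or more, beside 8.85% and 7.45% of all genes. In PAX8PPARg 4 of 8 were lower and 0 higher by 2-fold or more, beside 7.02% and 10.6%. The medians were -0.86 in WT and -0.96 in PAX8PPARg. Stat5a and Stat5b, which carry the signal of the growth hormone and prolactin receptors, differed by -2.59 and -1.46 in WT. In PAX8PPARg Stat5a differed by -1.86, and Stat5b read 376.1 under placebo and 162.4 under RU486. Their feedback genes Cish and Socs2 differed by -1.37 and -1.46 in WT and by -1.23 and -0.91 in PAX8PPARg. Ghr, the growth hormone receptor, read 788.7 under placebo and 616.1 under RU486 in WT, and 1712.1 and 523.0 in PAX8PPARg. On this brightest probe set the difference was past 2-fold in PAX8PPARg (-1.55) and not in WT (-0.35). The 3 probe sets of Ghr ran from -1.55 to -0.93 in PAX8PPARg and from -0.35 to 0.13 in WT.

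Among 12 measured genes for other binding proteins, proteases and modulators, 2 were higher and 2 lower by 2-fold or more in WT. The shares among all genes were 7.45% and 8.85%. In PAX8PPARg 3 were higher and 1 lower by 2-fold or more, beside 10.6% and 7.02% of all genes. Igfals, the subunit that stabilises circulating IGF complexes, differed by -1.97 in WT and -0.37 in PAX8PPARg. Pappa, the protease that cleaves IGFBP4, read 135.1, 76.4, 77.9 and 174.2 in that order (-0.71 in WT and 1.15 in PAX8PPARg), and Stc2, the gene of a PAPP-A inhibitor, read 944.8, 269.5, 3602.9 and 342.4 (-1.75 and -3.20). Htra1, a serine protease able to cleave IGF binding proteins, read 4260.3, 9190.3, 2101.4 and 2108.9. Like Igfbp4 it was highest on the WT RU486 array, with a difference of 1.11 in WT and 0.14 in PAX8PPARg. The CCN genes, whose proteins share an IGFBP-like domain, reached 2-fold for Ccn5 in WT (1.23), and for Ccn2 (1.40) and Ccn3 (1.09) in PAX8PPARg. Igfbp1 did not exceed the background range on any of the 4 arrays.

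Intracellular relay genes stayed mostly within 2-fold, as did most genes: among all genes 7.45% were higher and 8.85% lower by 2-fold or more in WT. In PAX8PPARg these shares were 10.6% and 7.02%. Of 16 genes of the PI3K, AKT and mTOR relay, 1 was higher by 2-fold or more in WT, Inpp5d, a lipid phosphatase of blood cells (1.62), and 1 in PAX8PPARg, the PI3 kinase subunit gene Pik3r2 (1.06), with 0 lower and medians of 0.10 and -0.03. Of 13 adaptor genes, Irs3 was higher by 2-fold or more (1.52) and Grb7 lower by 2-fold or more (-2.19) in WT, and 0 passed 2-fold in PAX8PPARg. Each was within the background range on 1 array, Irs3 and Grb7 having 1 probe set each. The list of FOXO factors and targets had 1 of 14 higher and 5 of 14 lower by 2-fold or more in WT, beside 7.45% and 8.85% of all genes. In PAX8PPARg it had 1 and 3, beside 10.6% and 7.02%. Klf15, a regulator of fuel use, differed by -2.59 in WT and -2.36 in PAX8PPARg and was within the background range on both RU486 arrays, so the size of its differences is inexact. Pdk4, a kinase that holds back glucose oxidation, differed by -1.34 in WT, and in PAX8PPARg it read 890.7 under placebo and 398.0 under RU486, just short of 2-fold on the scale used. Txnip differed by -1.04 and -0.70 in WT and PAX8PPARg, Sesn1 by 1.52 and -0.50, and Trib3 by 0.02 and 1.54. The probe sets of Foxo1 ranged from -1.52 to -0.73 in WT and from -1.58 to 1.22 in PAX8PPARg, and those of Pck1 from -1.30 to 0.01 and from -5.21 to 0.88, so their values depend on the probe set. The Pck1 value of -5.21 has an inexact size, since the PAX8PPARg RU486 signal (23.4) was within the background range.

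A mixed list held imprinted genes, genes of Igf2 mRNA binding proteins and Dusp9, a MAP kinase phosphatase gene of neither kind. In WT 4 of 8 were lower and 1 higher by 2-fold or more, beside 8.85% and 7.45% of all genes. In PAX8PPARg 1 was lower and 3 higher by 2-fold or more, beside 7.02% and 10.6%. As Igf2, the imprinted genes Peg3, Mest and Cdkn1c were lowest on the WT RU486 array. Peg3 read 1867.9 under placebo and 195.0 under RU486 in WT, and 1537.2 and 1112.7 in PAX8PPARg, and its 3 probe sets differed by -3.21 to -3.08 in WT. Mest read 1026.6, 151.8, 1499.5 and 1486.2 in the same order (-2.63 in WT), and Cdkn1c, the gene of a cell cycle inhibitor, 183.8, 39.6, 284.9 and 227.7 (-1.84). Plagl1, an imprinted zinc finger gene, was lower in both genotypes (-1.07 and -1.23), with -0.85 and -2.20 on its second probe set. The mRNA binding protein genes Igf2bp1 (1.67) and Igf2bp3 (1.01) and Dusp9 (1.07) were higher by 2-fold or more in PAX8PPARg, and Dusp9 also in WT (1.24). The 4 probe sets of Igf2bp3 ran from 0.65 to 1.01 in PAX8PPARg and the 3 of Dusp9 from 0.43 to 1.24 in WT. Igf2bp1 was within the background range on 2 arrays.

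**Figure D5:**
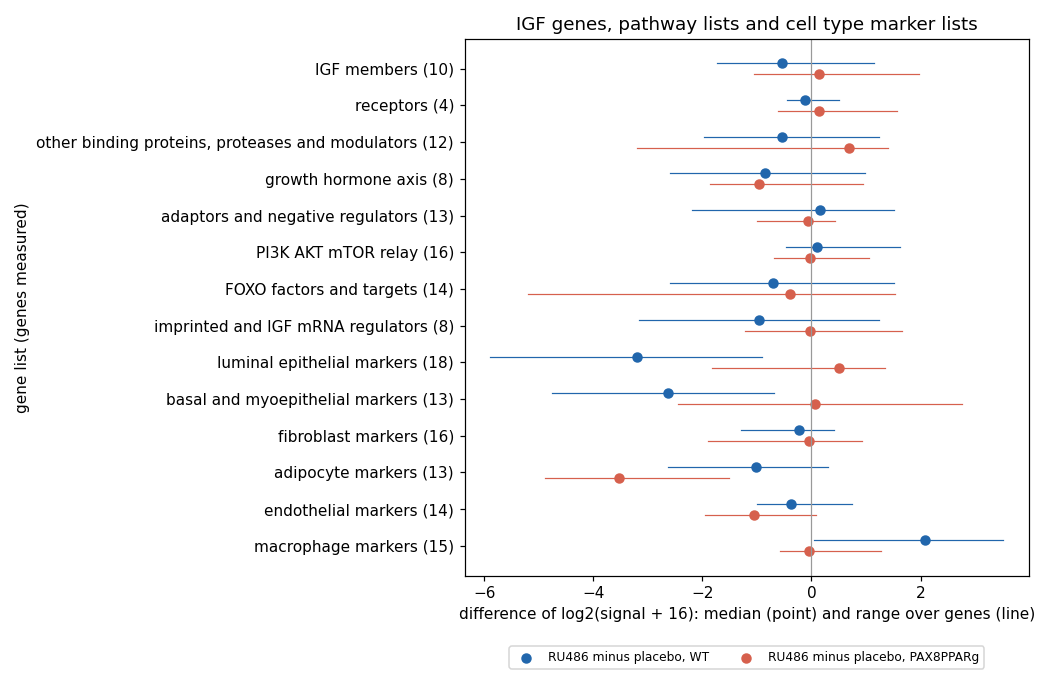
Median (points) and range over genes (lines) of the RU486 minus placebo difference for the IGF genes, the pathway lists and the cell type marker lists in WT (blue) and PAX8PPARg (red), with the number of measured genes in brackets. Epithelial and macrophage markers lie far from 0 in WT, and adipocyte markers in PAX8PPARg.

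Cell type markers also differed between the arrays. In WT 17 of 18 luminal markers were lower by 2-fold or more under RU486 (median -3.20), 11 of 13 basal and myoepithelial markers were lower (-2.63), 7 of 13 adipocyte markers were lower (-1.01), and 14 of 15 macrophage markers were higher (2.08). Among all genes 8.85% were lower and 7.45% higher by 2-fold or more in WT. The marker values stand beside the WT differences of Igf2, Igfbp5, Irs2, Igfbp4 and the pathway lists, and their part in them was not tested. Fibroblast markers had a median of -0.22 in WT and -0.04 in PAX8PPARg, with 0 of 16 higher by 2-fold or more and 3 of 16 lower by 2-fold or more in each. In PAX8PPARg 13 of 13 adipocyte markers (-3.53) and 7 of 14 endothelial markers (-1.05) were lower by 2-fold or more, against 7.02% of all genes. They stand beside the lower Igf1, Igfbp5, growth hormone axis and FOXO genes. Of 18 luminal markers, 2 were higher by 2-fold or more, a share near the 10.6% of all genes. Their median was 0.50, or 0.07 with quantile normalization. Of 13 basal and myoepithelial markers in PAX8PPARg, 6 were higher by 2-fold or more, among them the basal keratin genes Krt5 (2.26), Krt14 (2.57) and Krt17 (2.75), and 4 were lower, among them the smooth muscle myosin gene Myh11 (-2.45). The second probe set of Krt17 gave 0.24 and that of Myh11 -0.30, so the values of Krt17 and Myh11 depend on the probe set. The part of these markers in the PAX8PPARg differences of the IGF genes and pathway lists was not tested either. The summed endothelial signal was 3659.9 under placebo and 2734.3 under RU486 in WT and 6706.0 and 2963.6 in PAX8PPARg. The brightest Igfbp7 probe set lay between 4072.1 and 5722.1 on the same arrays. Of its dimmer pair in PAX8PPARg, 1423585_at read 225.9 under placebo and 147.7 under RU486, and 1437804_at read 286.3 and 364.5. The relation of Igfbp7 to the endothelial signal was not tested.

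Genes with a profile most like that of a member were sought for members whose level ranged over at least 2 log2, which held for Igfbp2. After subtraction of each gene's mean over the 4 arrays, the nearest of the genes at or above the median level were Mcam, a cell adhesion molecule gene, at a root mean square distance of 0.14 log2, Dhps, the deoxyhypusine synthase gene, at 0.21, and the semaphorin gene Sema6a at 0.21. Mcam read 185.6 under placebo and 124.7 under RU486 in WT, and 216.4 and 554.9 in PAX8PPARg. The likeness rests on 4 arrays and is a description.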

How the data were processed

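The values were the probe set signals that the authors deposited for the 4 arrays, as intensity on a linear scale. The sources used here do not say how the signals were computed. RNA was pooled from 5 mice per group before labelling, per the labels' protocols. Of 22690 probe sets, 64 were controls, 20380 had 1 gene symbol, 691 several and 1555 none. Gene names came from the platform table, and older symbols in the lists were matched through gene IDs.

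The log2(signal + 16) values of an array were centred on the median of its non-control probe sets, with the mean of the 4 medians added back. The pseudocount makes differences of dim genes smaller than their true size. The probe set with the highest mean stood for its gene. Signals were not compared between probe sets, and no detection calls were used. Counts used 2-fold over all 12393 genes. Additive models over the 6197 genes whose mean reached the median gene's were fitted with limma and Benjamini-Hochberg adjustment at 0.05. The steps were tested on simulated data. The genes named were the members, the receptors, pathway genes past 2-fold under RU486 in either genotype, and the 3 nearest profiles. Igfbp1, Irs4, Igf1os, Igf2os and the marker genes fall outside this rule and were named after their values were seen. The members and lists were chosen with earlier results of these data known. The alternatives were pseudocounts of 1 and 64, no centring, quantile normalization, averaged probe sets, and the level filter. Motifs were searched in RefSeq start site windows. Python 3.11.15, numpy 2.4.6, pandas 2.3.3, R 4.3.3 and limma 3.58.1 were used.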

Additional observations from a re-analysis of the deposited data

Results flagged for a closer look

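Of the 10 IGF genes, 5 had RU486 differences of opposite sign in WT and PAX8PPARg that lay at least 2-fold apart. Among all 12393 genes, 27.7% lay at least 2-fold apart, whatever their signs. The share of all genes that also had opposite signs was not counted, so the 5 cannot be set against it. The RU486 difference in PAX8PPARg minus that in WT was 1.34 for Igf2, 2.19 for Igfbp2, 2.38 for Igfbp3, -1.23 for Igfbp6 and 1.94 for Irs2, on the log2(signal + 16) scale. With 1 array per group the difference between genotypes was not tested. With a pseudocount of 64 the values of Igf2 (0.77) and Igfbp6 (-0.90) were less than 2-fold apart. The sign of the smaller difference is uncertain for Igf2 and Irs2. In PAX8PPARg Igf2 was 0.07, or -0.06 without centring, and Irs2 was 0.22, or 0.08 without centring. Both lie within the SD of 0.32 log2 between probe sets of 1 gene in that comparison. That SD came from probe sets at or above the median level of all genes, which Igf2 does not reach.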

How the results depend on the processing

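Of 90 medians and counts of the IGF genes under the alternatives, 83 stayed close to the reported value: medians within the spread that probe sets of 1 gene show, counts within 1.5 times. The spread was an SD of 0.24 to 0.39 log2 by comparison. It was taken over probe sets at or above the median level of all genes, which Igf2 and Igfbp6 do not reach. For the RU486 difference between genotypes, the count of genes at least 2-fold negative was 1 as reported, 0 with a pseudocount of 64 and with genes at or above the median level only, and 2 without centring, with quantile normalization and with averaged probe sets. Without centring, the count at least 2-fold lower under RU486 in PAX8PPARg was 2 in place of 1, and for PAX8PPARg minus WT under RU486 it was 1 in place of 2. Centring added 0.06, 0.06, -0.13 and 0.00 log2 to the placebo and RU486 arrays of WT and then of PAX8PPARg. Of 290 values of single IGF genes, 265 moved by less than that spread, 25 by more, and 0 of those past 2-fold changed sign. Part of the 265 could not move. The level filter only drops genes, so its 40 values were fixed. Averaging probe sets likewise leaves Igfbp2, Igfbp3, Igfbp6, Irs1 and Irs2 unchanged, with 1 probe set each. No paired analysis was possible because each group had 1 array and the labels carry no replicate numbers. The number of arrays limits these values, as does the signal over background for Igf2.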

Other observations

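A pair of genes next to the family, chosen after their values were seen, was also brightest on the WT RU486 array. Igf1os, an antisense gene of the Igf1 locus, read 1.4 under placebo and 37.4 under RU486 in WT, and 11.1 and 3.7 in PAX8PPARg, with 2 of the 4 within the background range. Irs3, a docking protein gene related to Irs1, read 11.9 and 63.7 in WT, and 18.9 and 27.0 in PAX8PPARg, where the RU486 value was within the background range. Igf2os, an antisense gene of the Igf2 locus, and Irs4 were within the background range on all 4 arrays.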
